A study of Mus musculus with 9 samples.

Results

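Oligodendrocyte precursor and lineage genes were followed in RNA sequencing of the mouse substantia nigra pars compacta, the midbrain nucleus that holds the dopamine neurons lost in Parkinson's disease. The set held 10 genes of 27339 in the deposited table, taken by symbol, and all 10 passed the filter on low values. They were Pdgfra, Cspg4 and Vcan, which mark precursor cells, Gpr17, Bcas1 and Enpp6, which mark cells that have begun to differentiate, and the transcription factor genes Sox10, Olig1, Olig2 and Myrf. The 9 libraries came from 3 groups of 3. These were mice given MPTP and fed a medium-chain triglyceride ketogenic diet (MPTPKD), mice given MPTP (MPTP) and controls (Ctrl). MPTP is a neurotoxin whose oxidation product is taken up by dopamine neurons and poisons their mitochondria, and a ketogenic diet makes the liver release ketone bodies. The sources used here give no strain, age, dose of MPTP or duration of the diet. No group with the diet alone was analysed here, and every diet library is also a toxin library. Nothing in the labels ties each library to a separate animal, and the p-values therefore measure only the spread between these libraries, which may be technical.

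Oligodendrocytes wrap axons in myelin and arise throughout life from precursor cells that divide under the control of platelet-derived growth factor. A precursor that leaves the cell cycle passes through a short committed stage and a premyelinating stage before it makes myelin, and each stage has its own genes. Olig2 and Sox10 hold cells in the lineage, and Myrf switches on the myelin genes at its end. Pdgfra, Vcan, Cspg4 and Sox10 are also active in other cells, namely fibroblasts, pericytes and Schwann cells, so the markers of those cells are given beside the results.

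Total counts ranged from 33.2 to 40.0 M per library (M being the SI prefix mega). Th, the rate-limiting enzyme of dopamine synthesis and the defining marker of the dissected nucleus, was present in all 9 libraries, at a mean of 61.9 ± 15.2 CPM in MPTPKD, 62.4 ± 6.49 in MPTP and 87.0 ± 19.9 CPM in Ctrl (SD, n = 3). CPM are counts per M counts of a library, scaled by TMM. Choroid plexus and meningeal markers varied between the libraries. Ttr, the main product of the choroid plexus, was at most 69.4 CPM in MPTPKD and 13.5 CPM in MPTP libraries but reached 1060 CPM in Ctrl 3. The summed level of 14 meningeal fibroblast genes ranged from 149 to 389 CPM in MPTPKD, 131 to 241 in MPTP and 252 to 351 CPM in Ctrl. Their mean log2 level, with the mean of Ctrl set to 0, was -1.12 in MPTPKD 1, -1.33 in MPTP 1 and -1.10 in MPTP 2, and lay between -0.39 and 0.55 in the other 6 libraries. Values without Ctrl 3, the library highest in Ttr, and MPTP 1, the lowest in meningeal genes, are given with each comparison. MPTPKD 1 and MPTP 2 remain in those values, so they do not remove all libraries low in meningeal genes.

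The 10 genes lay on 9 chromosomes of GRCm38. Pdgfra occupied chromosome 5, 75152292 to 75198215. Cspg4 was on chromosome 9, 56865033 to 56899870, and Vcan on the minus strand of chromosome 13, 89655312 to 89742509. Olig2 (91225457 to 91228677) and Olig1 (91269772 to 91271933) were neighbours on the plus strand of chromosome 16, with 41.1 kb between them. Sox10 lay on the minus strand of chromosome 15, 79154908 to 79165240. Enpp6 lay on chromosome 8, 46986887 to 47096762, and Bcas1 on the minus strand of chromosome 2, 170346991 to 170427845. Myrf lay on the minus strand of chromosome 19, 10208272 to 10240748. Exons of Pdgfra share 456 bp with Gm42802 on the other strand, those of Bcas1 440 bp with Bcas1os1 and those of Olig1 157 bp with Gm15966. The strand setting of the counting is not known, so reads of those stretches cannot be assigned to either gene.

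The DNA just before the start of the gene is shown for Enpp6, which had the highest fold change of the 10 genes in MPTP over Ctrl with all libraries in the fit, and for the precursor genes Pdgfra and Vcan. Each is the 250 bases before the RefSeq start on GRCm38.p6, read 5′ to 3′ on the gene's strand, and none of these windows holds a base of the annotated gene. RefSeq promoter entries matched 5 of the 10 genes. Capitals mark an E-box (CANNTG, the letters that basic helix-loop-helix factors such as Olig2 recognise), a Sox motif (ACAAAG or AACAAT) or a Myrf motif (CTGGCAC), searched on both strands.
Enpp6, chr8:46986637-46986886, plus strand: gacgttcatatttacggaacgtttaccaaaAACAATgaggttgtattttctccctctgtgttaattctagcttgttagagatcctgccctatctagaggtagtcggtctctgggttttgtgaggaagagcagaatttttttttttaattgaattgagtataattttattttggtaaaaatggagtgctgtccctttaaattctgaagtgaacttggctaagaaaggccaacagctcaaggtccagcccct
Pdgfra, chr5:75152001-75152250, plus strand: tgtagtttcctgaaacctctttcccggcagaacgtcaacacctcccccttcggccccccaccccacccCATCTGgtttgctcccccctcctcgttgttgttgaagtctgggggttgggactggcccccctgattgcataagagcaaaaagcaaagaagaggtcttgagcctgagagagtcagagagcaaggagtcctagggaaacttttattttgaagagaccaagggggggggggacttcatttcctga
Vcan, chr13:89742513-89742762, minus strand: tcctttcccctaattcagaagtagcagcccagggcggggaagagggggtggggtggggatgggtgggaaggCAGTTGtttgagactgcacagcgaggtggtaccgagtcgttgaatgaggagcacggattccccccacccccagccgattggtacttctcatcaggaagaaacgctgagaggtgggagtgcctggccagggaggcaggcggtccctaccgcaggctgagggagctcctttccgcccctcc

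The Enpp6 window held 1 Sox motif, 220 bases before the start, and it was poor in G and C (38.4%, against a median of 52.4% over 32851 promoter windows of the same length). The Pdgfra window (54.4% G and C) held 1 E-box, 182 bases before the start. The Vcan window (62.4% G and C) held 1 E-box, 179 bases before the start. No window of the 3 held the Myrf letters, and no marked motif overlapped another. An E-box was found in 66.2% of all promoter windows, ACAAAG in 16.5%, AACAAT in 9.42% and CTGGCAC in 4.19%, so an E-box in a window of this length is common. These are matches of letters and not measured binding.

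Levels can be compared between genes only per transcript length, and the authors' FPKM (fragments per kilobase of transcript per M mapped fragments) allow this. Bcas1, a gene of early and actively myelinating oligodendrocytes, was the most abundant of the 10, at a mean of 144 FPKM over the 9 libraries (range 120.2 to 161), higher than 98.0% of the 14949 genes tested. Olig1, a basic helix-loop-helix factor, followed at 113 FPKM (99.1 to 124), the 97.2 percentile. The ranges of these 2 genes overlapped, although Bcas1 stood above Olig1 in each of the 9 libraries. The other transcription factors formed a middle group. Sox10, which directs cells into the lineage and later acts on myelin genes with Myrf, was at 27.7 FPKM (21.9 to 31.4). Myrf was at 23.8 FPKM (20.5 to 25.9), below Sox10 in 9 of 9 libraries although the ranges overlapped. Olig2, which specifies the lineage, was at 21.9 FPKM (18.8 to 26.8), below Myrf in 8 of 9 libraries, and those ranges overlapped too. Differences between genes were not tested.

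The other stage markers, apart from Bcas1, were lower than the transcription factors. Gpr17, a receptor that marks committed precursors and premyelinating cells, was at 10.9 FPKM (10.4 to 11.5). Pdgfra, the receptor through which precursors respond to platelet-derived growth factor, was at 9.31 FPKM (8.36 to 10.1). Enpp6, a choline phosphodiesterase of newly formed oligodendrocytes, was at 3.63 FPKM (2.67 to 4.40). Cspg4, the NG2 proteoglycan of precursors and pericytes, was at 2.80 FPKM (2.48 to 3.31), and Vcan, the matrix proteoglycan versican, at 2.55 FPKM (2.21 to 3.05). The ranges of Enpp6 and Cspg4 overlapped, and so did those of Cspg4 and Vcan. The bottom 3 genes lay between the 24.7 and the 31.3 percentile of the genes tested. Fewer cells of a type and less RNA per cell cannot be told apart in bulk tissue, here and in every comparison that follows.

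**Figure D1:**
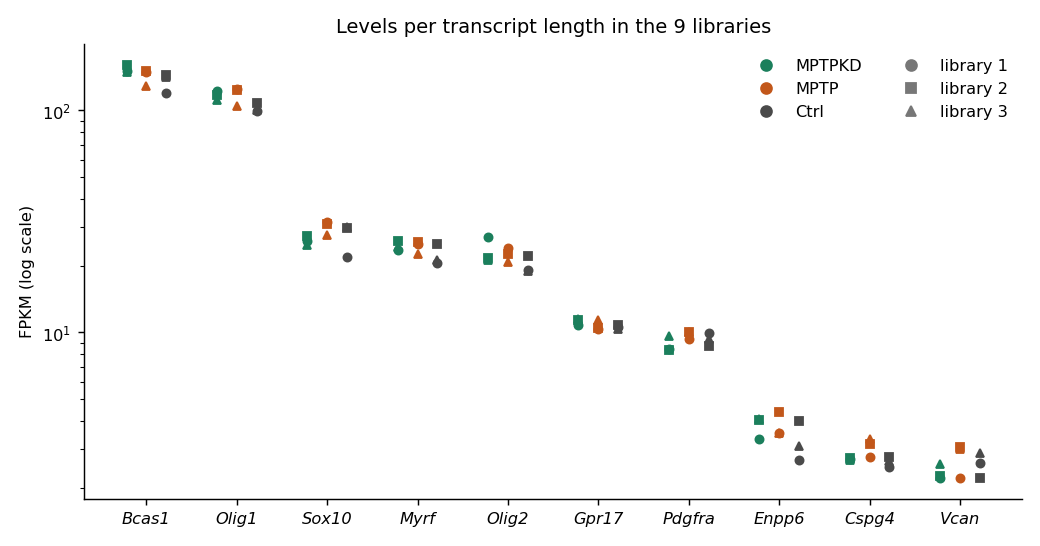
FPKM (log scale) of the 10 genes, ordered by their mean, in each of the 9 libraries; colours mark the groups and symbols the library numbers. Bcas1 and Olig1 stand at 99.1 FPKM or above in every library, and Enpp6, Cspg4 and Vcan stand at 4.40 FPKM or below.

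Of the precursor genes, Pdgfra had the narrowest range over the libraries. It stood at 59.6, 58.2 and 67.3 CPM in MPTPKD, at 64.4, 69.1 and 66.8 in MPTP and at 67.5, 60.2 and 63.6 CPM in Ctrl. The highest of the 9 values was 1.19-fold the lowest, and the groups overlapped in every pair. Its log2 fold change was 0.07 (95% interval -0.08 to 0.21) in MPTP over Ctrl and -0.11 (-0.26 to 0.03) in MPTPKD over MPTP.

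Cspg4 stood at 23.4, 23.6 and 23.0 CPM in MPTPKD, at 23.8, 26.9 and 27.6 in MPTP and at 21.3, 23.7 and 22.3 CPM in Ctrl. All 3 MPTP libraries lay above every library of both other groups, with MPTP 1 only just above Ctrl 2. The log2 fold change was 0.22 ± 0.083 (SE) in MPTP over Ctrl, an increase of 16.2% (95% interval 2.63% to 31.5%), and edgeR's p of 0.0214 became 0.893 after adjustment over all genes. The exact two-sided permutation p was 0.1, the smallest that 3 against 3 libraries allow. In MPTPKD over MPTP the log2 fold change was -0.16 ± 0.083 (edgeR adjusted p = 0.67). Pericyte genes are given beside this gene because pericytes also make Cspg4. The summed level of 13 pericyte and smooth muscle genes was 359 to 441 CPM in MPTPKD, 381 to 401 in MPTP and 402 to 417 CPM in Ctrl, and the pericyte receptor gene Pdgfrb averaged 29.2 ± 1.45 CPM in MPTPKD, 33.0 ± 4.11 in MPTP and 29.0 ± 2.78 CPM in Ctrl. By their fitted values 8 of the 13 genes were higher in MPTP than in Ctrl and 5 lower, from a log2 fold change of -1.11 to 0.24. An unadjusted p under 0.05 by edgeR was reached by 1 of the higher and 3 of the lower genes, against 5.36% of all genes. In MPTPKD over MPTP 5 of the 13 were higher and 8 lower, and none was called in either comparison. Pdgfrb thus does not stand for the whole list. The part of pericytes in the Cspg4 values was not tested.

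Vcan stood at 21.4, 26.1 and 25.9 CPM in MPTPKD, at 23.2, 28.45 and 29.3 in MPTP and at 26.4, 24.25 and 20.1 CPM in Ctrl. Library values were scattered within each group, with the lowest in Ctrl 3 and the highest in MPTP 3. Its log2 fold change was 0.19 (95% interval -0.07 to 0.46) in MPTP over Ctrl and 0.05 (-0.21 to 0.31) in MPTPKD over Ctrl. Neither value was stable. The first was 0.092 without Ctrl 3, 0.29 without MPTP 1 and 0.087 by limma on the authors' FPKM, and the second was -0.095 by limma and -0.049 without Ctrl 3.

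For Vcan the count and the FPKM ranked Ctrl 3 differently. Scaled counts put this library lowest of the 9, at 20.1 CPM, but its FPKM of 2.86 was the highest of the Ctrl libraries (2.59 in Ctrl 1 and 2.21 in Ctrl 2). The transcript length implied by count and FPKM was 7126 bp in Ctrl 3, against 9315 to 11413 bp in the other 8 libraries. The highest implied length was 1.6 times the lowest, a ratio above that of 99.3% of 12482 genes with enough counts, whose median ratio was 1.03. For the other 9 genes the ratio was at most 1.21, the value of Enpp6 (4053 to 4922 bp). That was above the ratio of 94.1% of the same 12482 genes. GENCODE lists 8 coding Vcan transcripts of 294 to 12427 bp, and the full-length forms of versican are known to differ by its large glycosaminoglycan attachment exons. The tests were made on counts, which do not use this length and are not corrected for it either. Whether other transcripts were present in Ctrl 3 was not tested.

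**Figure D2:**
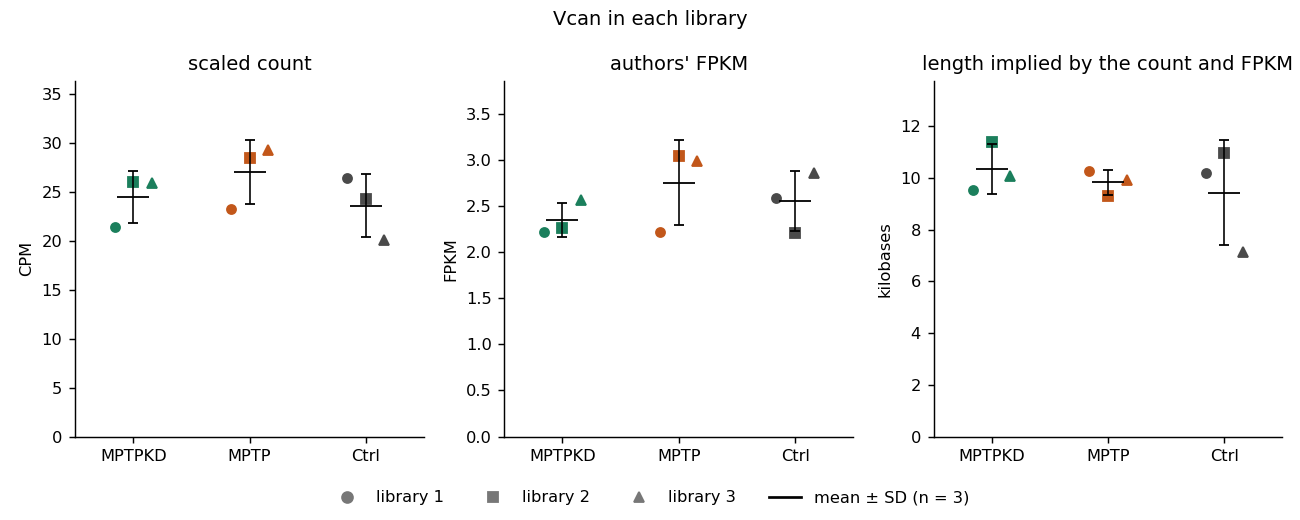
Vcan in each library, as scaled counts (CPM, left), as the authors' FPKM (middle) and as the transcript length in kilobases that count and FPKM together imply (right). Symbols are libraries, lines are the mean ± SD of 3 libraries, and Ctrl 3 is lowest in counts and in implied length but highest of Ctrl in FPKM.

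Among the genes of differentiating cells, Gpr17 had the narrowest range over the 9 libraries, with the highest value 1.13-fold the lowest. It stood at 60.0, 62.7 and 63.4 CPM in MPTPKD, at 57.8, 57.5 and 60.6 in MPTP and at 57.9, 59.5 and 56.1 CPM in Ctrl. Its coefficient of variation within a group was 2.86% in MPTPKD, 2.95% in MPTP and 2.96% in Ctrl, against 2.17% from counting error alone at its depth. The 3 MPTPKD libraries lay above the 3 Ctrl libraries, by a log2 fold change of 0.10 (95% interval -0.02 to 0.22, edgeR adjusted p = 0.785). MPTP and Ctrl overlapped, with a log2 fold change of 0.02 (-0.10 to 0.14), so a change of more than 10.2% upwards lay outside the interval. Gpr17 lies on the minus strand of chromosome 18, 31942997 to 31949636, and its exons share 188 bp with Lims2 on the other strand, whose reads there cannot be separated from its own.

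Bcas1 stood at 365, 389 and 363 CPM in MPTPKD, at 360.5, 361.5 and 300.6 in MPTP and at 289.5, 349 and 333 CPM in Ctrl. Every MPTPKD library lay above every library of the other 2 groups. In MPTPKD over Ctrl the log2 fold change was 0.20 ± 0.082, an increase of 15.0% (95% interval 1.55% to 30.3%), with an edgeR p of 0.031 and an adjusted p of 0.74. In MPTPKD over MPTP it was 0.13 ± 0.082 (adjusted p = 0.73), and in MPTP over Ctrl 0.07 ± 0.082 (adjusted p = 0.956). Single libraries carried much of these values: without MPTP 3 they were 0.045 in MPTPKD over MPTP and 0.16 in MPTP over Ctrl, and without Ctrl 1 MPTP exceeded Ctrl by 0.003.

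Enpp6 had the highest fold change of the 10 genes in each comparison with Ctrl when all libraries were used. Without Ctrl 1 Vcan exceeded it in MPTP over Ctrl (0.29 against 0.26) and Olig2 and Olig1 did in MPTPKD over Ctrl (0.20 and 0.19 against 0.18). In MPTPKD over Ctrl Olig2 also exceeded it without MPTPKD 2 (0.28 against 0.21) and without MPTPKD 3 (0.295 against 0.292). Enpp6 stood at 16.1, 18.5 and 16.6 CPM in MPTPKD, at 16.45, 20.6 and 17.15 in MPTP and at 12.3, 16.6 and 13.6 CPM in Ctrl. Ctrl 1 and Ctrl 3 lay below all 6 libraries of mice given MPTP, whereas Ctrl 2 lay among them. The log2 fold change in MPTP over Ctrl was 0.35 ± 0.127, an increase of 27.3% (95% interval 5.24% to 53.9%), with an edgeR p of 0.0167 and an adjusted p of 0.893. By limma on FPKM it was 0.22 (limma p = 0.162), and the exact two-sided permutation p was 0.2. Enpp6 was also the second most variable gene in Ctrl, with a coefficient of variation of 15.7% against 4.14% from counting error. In MPTPKD over MPTP the log2 fold change was -0.08 (95% interval -0.35 to 0.20).

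The transcription factor genes varied within the groups as well as between them. Sox10 stood at 75.0, 78.8 and 71.6 CPM in MPTPKD, at 90.9, 88.3 and 76.5 in MPTP and at 62.8, 85.35 and 84.5 CPM in Ctrl. Ctrl 1 was the lowest of all 9 libraries, and the coefficient of variation in Ctrl was 16.5%, against 1.88% from counting error. The log2 fold change was 0.14 (95% interval -0.12 to 0.39) in MPTP over Ctrl and ranged from 0.009 to 0.21 when 1 library was left out. Schwann cells also make Sox10, and of 10 Schwann cell genes 4 passed the filter on low values. Egr2, which switches on myelin genes in Schwann cells, was at most 0.456 CPM in any library, and Pmp2 was listed at 0 in all 9. The summed level of the list was 58.0 to 75.7 CPM in MPTPKD, 61.1 to 68.7 in MPTP and 59.9 to 64.1 CPM in Ctrl, of which Pmp22 gave 41.7 ± 6.19 CPM in MPTPKD, 40.1 ± 3.20 in MPTP and 36.7 ± 3.40 CPM in Ctrl.

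Olig1 stood at 283, 269.5 and 258 CPM in MPTPKD, at 287, 282 and 232 in MPTP and at 226.5, 249 and 226 CPM in Ctrl. All 3 MPTPKD libraries lay above the Ctrl libraries, and 2 of the 3 MPTP libraries did. MPTPKD exceeded Ctrl by a log2 fold change of 0.21 ± 0.076, with an edgeR p of 0.0169 and an adjusted p of 0.74. MPTP exceeded Ctrl by 0.19 ± 0.076, with an edgeR p of 0.0254 and an adjusted p of 0.893. The exact two-sided permutation p was 0.1 in MPTPKD over Ctrl and 0.2 in MPTP over Ctrl. Without Ctrl 3 and MPTP 1 the log2 fold change in MPTP over Ctrl was 0.11. MPTPKD and MPTP could not be separated, with a log2 fold change of 0.02 (95% interval -0.15 to 0.18).

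Olig2, the neighbour of Olig1, stood at 72.4, 58.35 and 56.8 CPM in MPTPKD, at 64.6, 59.95 and 53.8 in MPTP and at 51.2, 59.4 and 49.5 CPM in Ctrl. The value of MPTPKD 1 was the highest of the 9, and the other 2 MPTPKD libraries lay within the span of both other groups. Its log2 fold change was 0.23 ± 0.105 in MPTPKD over Ctrl (edgeR adjusted p = 0.742) and 0.16 ± 0.105 in MPTP over Ctrl (adjusted p = 0.922). Without MPTPKD 1 the MPTPKD over Ctrl value was 0.11, and the MPTP over Ctrl value ranged from 0.093 to 0.24 when 1 library was left out.

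Myrf stood at 139.5, 154 and 144 CPM in MPTPKD, at 148, 148.5 and 128 in MPTP and at 119.8, 146 and 122 CPM in Ctrl. Ctrl 2 alone of the Ctrl libraries reached the values of the other groups. The log2 fold change was 0.17 ± 0.083 in MPTPKD over Ctrl (edgeR adjusted p = 0.749), 0.13 ± 0.083 in MPTP over Ctrl (adjusted p = 0.922) and 0.04 ± 0.083 in MPTPKD over MPTP (adjusted p = 0.931). Leaving out 1 library moved it between 0.084 and 0.23 in MPTP over Ctrl and between 0.13 and 0.27 in MPTPKD over Ctrl.

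**Figure D3:**
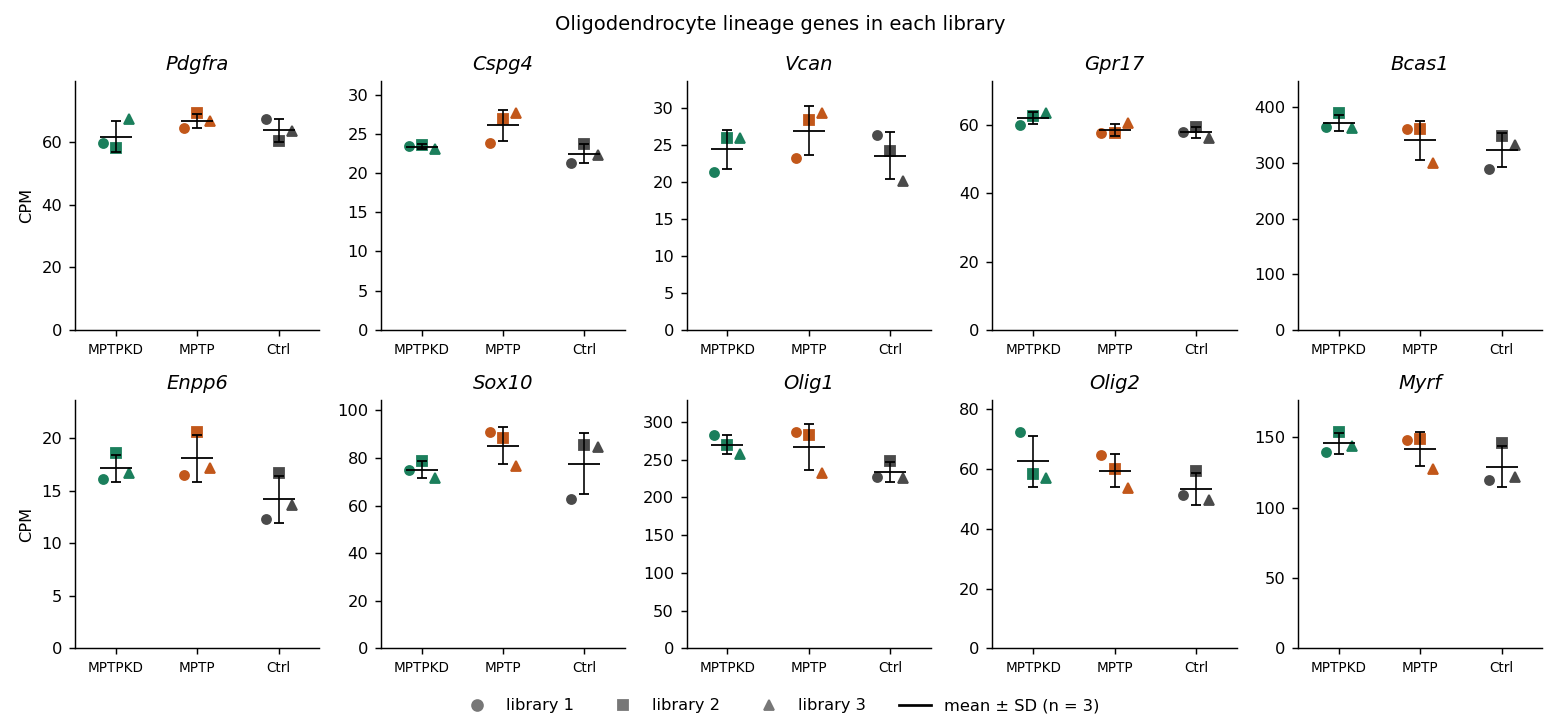
CPM of the 10 genes in each library, from 0, with MPTPKD left, MPTP in the middle and Ctrl right; symbols are libraries and lines the mean ± SD of 3 libraries. Enpp6 and Myrf are low in Ctrl 1 and Ctrl 3 but not in Ctrl 2, and Gpr17 shows the least scatter.

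The comparison of MPTP with Ctrl asked what the toxin did in the nigra. None of the 10 lineage genes passed the test, by edgeR or by DESeq2. All 10 were higher in MPTP by their fitted value, from a log2 fold change of 0.02 for Gpr17 to 0.35 for Enpp6, with a median of 0.15, and Gpr17 alone changed sign when 1 library was left out. Over all 14949 genes tested the median was -0.001, and 49.6% were higher. The 10 genes were read in the same libraries, so their signs are not independent. Their list was chosen with earlier results of these data known. EdgeR called 2 of all genes, 0.0134%. An unadjusted p under 0.05 was reached by 3 of the 10 genes (Enpp6, Cspg4 and Olig1) and by 5.36% of all genes. The groups did not overlap for 1 of the 10 genes, Cspg4, and for 10.5% of all genes. The median of the 10 was 0.10 without Ctrl 3 and MPTP 1, and it ranged from 0.096 without MPTP 1 to 0.22 without Ctrl 2. With the meningeal score (the mean log2 level of the meningeal genes, centred within each group) in the model, the median was 0.14. A score centred in this way cannot take up a meningeal difference between the groups.

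Markers of other cell types also differed from Ctrl by their fitted values, with none called. Of 12 microglia genes 9 were higher in MPTP than in Ctrl (median 0.10 on the log2 scale) and 10 were higher in MPTPKD than in Ctrl (0.16). Of those 10, 4 had an unadjusted p under 0.05 by edgeR, as did 6.73% of all genes. Of 12 astrocyte genes 10 were higher in MPTP than in Ctrl (0.055) and 9 in MPTPKD (0.051). All 12 dopamine neuron genes were lower than in Ctrl, by a median of -0.37 in MPTP and of -0.29 in MPTPKD, whereas 12 general neuron genes had a median of -0.002 in MPTP over Ctrl. In summed level, microglia genes ranged from 360.0 to 374 CPM in MPTPKD, 343 to 365 in MPTP and 312 to 353 CPM in Ctrl, and dopamine neuron genes from 685 to 851 CPM in MPTPKD, 739 to 845 in MPTP and 867 to 1030 CPM in Ctrl. The part of the cell makeup of the tissue in the values of the 10 lineage genes was not tested.

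The comparison of MPTPKD with MPTP asked what the diet added in mice given the toxin. No lineage gene passed, and the directions were mixed, with 5 of the 10 higher in MPTPKD and 5 lower. The precursor genes Pdgfra, Cspg4 and Vcan and the genes Enpp6 and Sox10 had negative log2 fold changes, down to -0.18 for Sox10, and Bcas1 had the highest, at 0.13. Called were 0% of all genes. An unadjusted p under 0.05 was reached by 0 of the 10 genes and by 7.78% of all genes by edgeR, which came to 1163 genes, and DESeq2 called 19 genes, none of the 10 among them. The groups did not overlap for 2 of the 10 genes (Bcas1 above, Cspg4 below) and for 13.7% of all genes. The median was -0.031, between -0.077 and 0.043 when 1 library was left out, and -0.031 without Ctrl 3 and MPTP 1.

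MPTPKD and Ctrl differ by toxin and diet together. No lineage gene passed, and 0% of all genes were called, with 6.73% (1006 genes) at an unadjusted p under 0.05 by edgeR and 16 genes called by DESeq2. By their fitted values 8 of the 10 genes were higher in MPTPKD, and Pdgfra and Sox10 lower, with a median of 0.14 (Vcan was lower by limma on FPKM). Both lower signs turned when 1 library was left out, that of Sox10 without Ctrl 2 (0.030) and without Ctrl 3, and that of Pdgfra without Ctrl 1 (0.0002). An unadjusted p under 0.05 was reached by 2 of the 10, Olig1 and Bcas1. The groups did not overlap for 3 of the 10 (Gpr17, Bcas1 and Olig1, all above Ctrl) and for 12.7% of all genes. Without Ctrl 3 and MPTP 1 the median was 0.11. This comparison shares its Ctrl libraries with that of MPTP and Ctrl, and its MPTPKD libraries with that of MPTPKD and MPTP.

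Taking the mean of both groups given MPTP over Ctrl sets 6 libraries against 3. All 10 genes had a fitted value above 0 by edgeR, with a median of 0.14, whereas limma on FPKM put Pdgfra and Vcan at -0.004, and no gene passed. The log2 fold change was 0.31 ± 0.111 for Enpp6 and 0.20 ± 0.066 for Olig1, each with an edgeR adjusted p of 0.899 and an exact two-sided permutation p of 0.0357. For Olig1, 5 of the 6 libraries of mice given MPTP lay above every Ctrl library, and for Enpp6 4 of the 6. The smallest exact p that 6 against 3 libraries allow is 0.0119, and these are the smallest of the 10 genes, unadjusted. Called were 0% of all genes, while 5.46% (816 genes) had an unadjusted p under 0.05 by edgeR, as 2 of the 10 genes did, and DESeq2 called 16. The groups did not overlap for 0 of the 10 genes and for 2.31% of all genes. The median of the 10 was 0.10 without Ctrl 3 and MPTP 1.

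**Figure D4:**
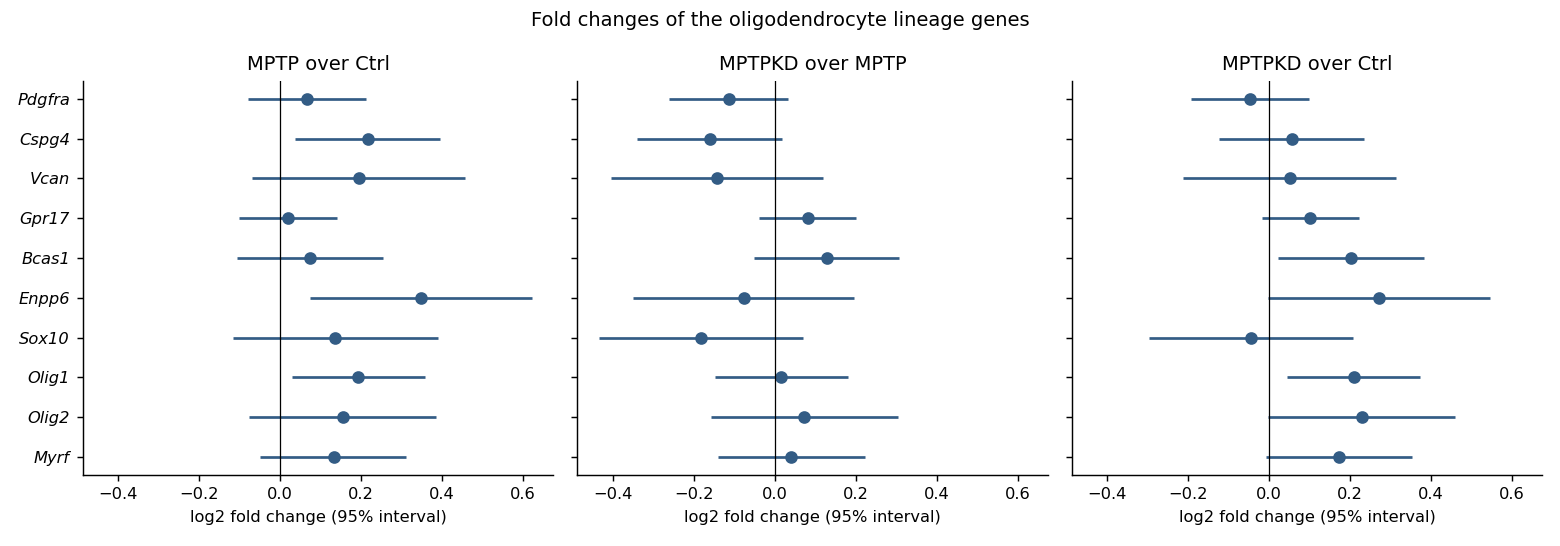
Log2 fold change of each of the 10 genes by edgeR with its unadjusted 95% interval, in MPTP over Ctrl (left), MPTPKD over MPTP (middle) and MPTPKD over Ctrl (right). The points of MPTP over Ctrl all lie above 0, from 0.02 to 0.35, and those of MPTPKD over MPTP lie on both sides of it.

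Several of these genes were high or low in the same library of a group. Within Ctrl, library 2 was the highest for 8 of the 10, and library 1 the lowest for 5 (Cspg4, Bcas1, Enpp6, Sox10 and Myrf). Within MPTP, library 3 was the lowest for Bcas1, Sox10, Olig1, Olig2 and Myrf, but the highest for Cspg4, Vcan and Gpr17. Within MPTPKD, library 2 was the highest for 6. The mean log2 level of the 10, with the mean of Ctrl at 0, was 0.11, 0.15 and 0.11 in MPTPKD 1 to 3, 0.15, 0.22 and 0.09 in MPTP 1 to 3, and -0.07, 0.10 and -0.04 in Ctrl 1 to 3. Ctrl 2 thus reached the level of the lowest libraries of the other groups.

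Mature myelin genes, the next stage of the lineage, were likewise highest in library 2 within MPTPKD and within Ctrl, and lowest in library 3 within MPTP. Their mean log2 level was 0.15, 0.28 and 0.19 in MPTPKD 1 to 3, 0.24, 0.22 and 0.02 in MPTP 1 to 3, and -0.10, 0.14 and -0.04 in Ctrl 1 to 3. Their summed level was 15400 to 16800 CPM in MPTPKD, 12900 to 15700 in MPTP and 12200 to 14800 CPM in Ctrl. Of 22 myelin genes 21 were higher in MPTP than in Ctrl (median 0.18 on the log2 scale) and 22 were higher in MPTPKD than in Ctrl (median 0.22), but none passed the test. An unadjusted p under 0.05 by edgeR was reached by 4 of the 22 in MPTP over Ctrl, against 5.36% of all genes. In MPTPKD over Ctrl it was reached by 10 of the 22, against 6.73% of all genes. Mobp, a small structural protein of compact myelin, averaged 2320 ± 85.4 CPM in MPTPKD, 2000 ± 255 in MPTP and 1850 ± 149 CPM in Ctrl (SD, n = 3). Opalin, a membrane protein of oligodendrocytes, averaged 29.6 ± 1.95 CPM in MPTPKD, 35.2 ± 5.28 in MPTP and 27.4 ± 3.91 CPM in Ctrl. The part of the number of mature oligodendrocytes or of the dissected white matter in the 10 genes' values was not tested.

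Other precursor genes had medians near 0 in both comparisons with Ctrl. Of 25 listed, 24 were tested, and their median log2 fold change was -0.002 in MPTP over Ctrl, with 11 higher and 13 lower, and -0.003 in MPTPKD over Ctrl, with 12 higher and 12 lower. None was called, and none reached an unadjusted p under 0.05 in either comparison or in MPTPKD over MPTP. Ptprz1, a receptor phosphatase abundant in precursors and astrocytes, averaged 271 ± 9.29 CPM in MPTPKD, 290 ± 15.0 in MPTP and 273 ± 14.0 CPM in Ctrl. Cspg5, a proteoglycan of precursors and neurons, averaged 183 ± 6.25 CPM in MPTPKD, 195 ± 4.09 in MPTP and 186 ± 1.96 CPM in Ctrl.

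Of 22 further genes of committed precursors and newly formed oligodendrocytes 21 were tested, with medians of 0.07 in MPTP over Ctrl, 0.04 in MPTPKD over MPTP and 0.10 in MPTPKD over Ctrl, and none was called. In MPTPKD over MPTP an unadjusted p under 0.05 by edgeR was reached by 7.78% of all genes and by 5 of the 21. Plekha1, a phosphoinositide-binding adaptor, had the smallest of these and averaged 108 ± 3.60 CPM in MPTPKD, 92.9 ± 4.86 in MPTP and 97.3 ± 1.23 CPM in Ctrl, a log2 fold change of 0.22 ± 0.054 in MPTPKD over MPTP (edgeR adjusted p = 0.55). Of 26 other transcription factors of the lineage 24 were tested, with medians of 0.05 in MPTP over Ctrl, 0.01 in MPTPKD over MPTP and 0.04 in MPTPKD over Ctrl, and none called. Prrx1, a factor of quiescent precursors and of fibroblasts, had the smallest p in MPTP over Ctrl, at a log2 fold change of -0.51 ± 0.174 (edgeR adjusted p = 0.893).

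Of 27 listed ligands, receptors and modulators of the lineage 26 were tested. Their medians were 0.007 in MPTP over Ctrl, 0.04 in MPTPKD over MPTP and 0.07 in MPTPKD over Ctrl, and none was called. Lingo1, a receptor component that restrains differentiation, averaged 142 ± 6.25 CPM in MPTPKD, 143 ± 15.8 in MPTP and 122 ± 4.53 CPM in Ctrl, a log2 fold change of 0.23 ± 0.071 in MPTP over Ctrl (edgeR adjusted p = 0.889). Neurons also express Lingo1. Igf1, a growth factor for the lineage, averaged 16.4 ± 2.28 CPM in MPTPKD, 12.9 ± 1.58 in MPTP and 15.7 ± 0.784 CPM in Ctrl, a log2 fold change of 0.35 ± 0.123 in MPTPKD over MPTP (edgeR adjusted p = 0.625). Of 15 cell cycle genes 6 passed the filter on low values, and none was called. Pcna, the sliding clamp of DNA replication and repair, averaged 35.5 ± 2.58 CPM in MPTPKD, 27.6 ± 1.68 in MPTP and 30.4 ± 1.75 CPM in Ctrl, and its log2 fold change of 0.36 ± 0.082 in MPTPKD over MPTP had an edgeR adjusted p of 0.55.

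**Figure D5:**
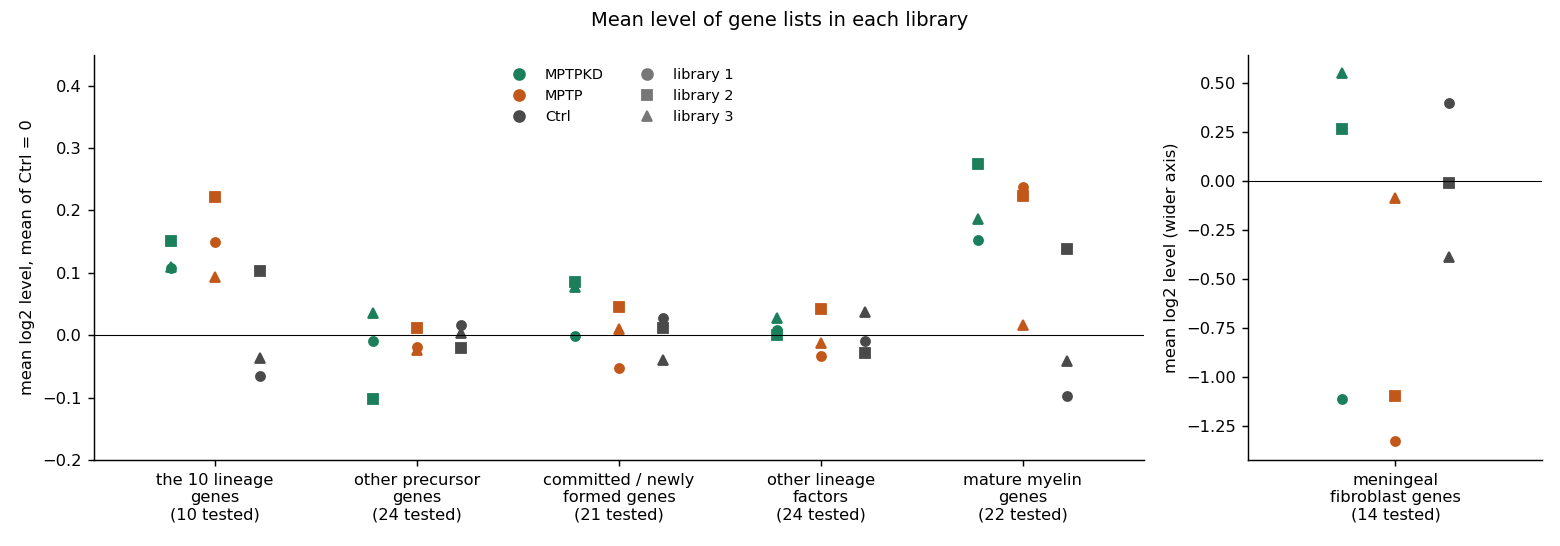
Mean log2 level of each gene list in each library, with the mean of Ctrl set to 0; the right panel, for meningeal fibroblast genes, has a wider axis. The 10 lineage genes and the myelin genes are high in Ctrl 2 and low in Ctrl 1 and Ctrl 3, and the meningeal genes are below -1 in MPTPKD 1, MPTP 1 and MPTP 2.

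Fibroblasts of the meninges make Pdgfra and Vcan as well. All 14 meningeal genes were lower in MPTP than in Ctrl by their fitted value (median log2 fold change -0.78), all 14 were higher in MPTPKD than in MPTP (0.82), and none was called. The collagen gene Col1a1 averaged 14.2 ± 5.10 CPM in MPTPKD, 8.79 ± 2.30 in MPTP and 11.0 ± 0.964 CPM in Ctrl. The growth factor gene Igf2 averaged 89.2 ± 41.4 CPM in MPTPKD, 45.9 ± 16.1 in MPTP and 90.9 ± 9.81 CPM in Ctrl. Pdgfra and Vcan had the opposite signs, positive in MPTP over Ctrl and negative in MPTPKD over MPTP. With the meningeal score in the model, the log2 fold change in MPTP over Ctrl was 0.35 for Enpp6, 0.22 for Cspg4, 0.20 for Vcan, 0.19 for Olig1 and 0.067 for Pdgfra, and none of the 10 genes was called. The score was centred within each group, so that fit could not take up a meningeal difference between MPTP and Ctrl. The part of meningeal tissue in the values of Pdgfra and Vcan was not tested.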

How the data were processed

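Raw read counts and FPKM were deposited by the authors for each gene and library, per the file headers. RNA was extracted with RNeasy columns and libraries were made with a NEBNext Ultra kit, per the labels' protocols. The build was GRCm38 (mm10), per the submitters' processing notes, which name no aligner, counter or strand setting. Of 27349 lines 10 named no gene and were left out, and 27 symbols turned into dates were restored through their identifiers. Libraries were assigned by title, and those of a group differed by more than sampling noise (chi-square per degree of freedom at least 10.9).

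Counts were tested with edgeR 4.0.16 (robust quasi-likelihood, TMM factors 0.9833 to 1.016, R 4.3.3) in a model of all 9 libraries. It covered the 14949 genes whose mean FPKM reached 0.5, with Benjamini-Hochberg adjustment over them and a threshold of 0.05. The script was tested on simulated data with changes larger than any fitted for the lineage genes, so that test does not cover changes of their size. Alternatives were DESeq2 1.42.0, limma 3.58.1 on log2(FPKM + 0.5) and log2(FPKM + 1), other scaling and filters, a block by library number and fits without libraries. A further fit took the meningeal score, centred within each group, as a covariate. Same-numbered libraries of MPTPKD and MPTP correlated at 0.107 to 0.182 in their deviations from the group means, over the minimum of 0.1 for a pairing. No lineage gene was called with the block or without it.

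The 10 genes and the other lists were chosen with earlier results of these data known. All 10 are described; from each other list, genes with the smallest p or highest FPKM and defining markers are named, apart from 1 marker that is not reported here. Some genes stand in more than 1 of the other lists. Fam5c and Zfp191 were not matched. Coordinates are from GENCODE M21 and promoters from RefSeq.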

Additional observations from a re-analysis of the deposited data

How the results depend on the processing

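No lineage gene was called in any comparison under any alternative, and over 750 alternative values the smallest adjusted p was 0.211; 23 values changed sign. The count of all genes called in MPTP over Ctrl (2) was 14 with DESeq2, 0 with limma at either pseudocount, 0 without the robust step, 9 with the meningeal covariate, 1 without Ctrl 3 and MPTP 1 and 0 to 4 without 1 library. In MPTPKD over MPTP (0) it was 19 with DESeq2, 1 without Ctrl 3 and MPTP 1 and 0 to 1 without 1 library. In MPTPKD over Ctrl (0) it was 16 with DESeq2, 1 without the filter, 4 in a fit of those groups alone and 0 to 4 without 1 library. In the mean of both groups over Ctrl (0) it was 16 with DESeq2, 3 without the filter and 0 to 4 without 1 library. With a replicate block it was 3, 0, 5 and 7 in the same order. Same-numbered libraries correlated at -0.151 to 0.0472 between MPTP and Ctrl and at -0.00735 to 0.0783 between MPTPKD and Ctrl, below the minimum for a pairing, and the block changed no call of a lineage gene.

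The log2 fold changes whose sign changed were at most 0.12 in size by edgeR on all libraries. That value belonged to Vcan in the mean of both groups over Ctrl. The cause of the changes was not tested. In MPTPKD over Ctrl, Vcan was -0.095 and -0.0816 with limma (pseudocount 0.5 and 1) and -0.0507 without Ctrl 3 and MPTP 1, and Sox10 was 0.0207 without those libraries. In the mean of both groups over Ctrl, Pdgfra was -0.0044 and -0.00411 and Vcan -0.00407 and -0.00308 with limma. Without 1 library, Gpr17 ranged from -0.00298 to 0.0405 in MPTP over Ctrl. In MPTPKD over MPTP, Enpp6 ranged from -0.139 to 0.0272, Olig1 from -0.0746 to 0.0723, Olig2 from -0.0454 to 0.139 and Myrf from -0.0278 to 0.0784. In MPTPKD over Ctrl, Pdgfra ranged from -0.113 to 0.000241, Vcan from -0.049 to 0.145 and Sox10 from -0.172 to 0.0295. In the mean of both groups over Ctrl, Pdgfra ranged from -0.03 to 0.0564 and Sox10 from -0.0818 to 0.12. Counting error alone gave a coefficient of variation between 0.903% (Bcas1) and 4.14% (Enpp6) per library.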
